A study of Mus musculus with 6 samples.

Results

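The BCL2 family genes examined here were Mcl1, Bcl2, Bcl2l1 and Bcl2l2, whose proteins hold cells alive, and Bcl2l11, Bax, Bak1, Bad and Bid, whose proteins promote cell death. They were chosen by gene symbol. Of the 22626 probe sets on the arrays, 26 carried the symbol of one of these genes and of no other gene, and they covered 8 of the 9 genes. No probe set carried the symbol Bax in the annotation table used, and Bax was not analysed here. RNA came from the suprachiasmatic nucleus (SCN), the circadian clock of the hypothalamus, of adult male C57BL/6 mice aged 2 to 4 months. A light pulse of 2400 lux for 30 minutes was compared with a sham light pulse given in darkness, and both began when the lights had been off for 1 hour (14 hours of light, 10 of darkness). Tissue was taken as the pulse ended, 1.5 hours after lights off. There were 3 arrays of each kind, called light arrays and sham arrays here, and each array held laser-captured SCN tissue pooled from 3 mice. Neither the labels nor the methods say whether any mouse entered several pools, so the p-values speak only for the spread between these pools.

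Proteins of the BCL2 family meet at the outer membrane of the mitochondrion and decide whether it is opened. BAX and BAK form the pores that let cytochrome c escape and so start the caspase cascade. MCL1, BCL2, BCL-XL (from Bcl2l1) and BCL-W (from Bcl2l2) bind these proteins and keep them in check. BIM (from Bcl2l11), BAD and BID carry the short BH3 helix, through which they occupy the survival proteins or, for BIM and BID, also act on the pore formers directly. MCL1 is short-lived, and its gene responds early to growth factors and other stimuli in many cell types. MCL1 and BCL-XL are survival factors of neurons, and BIM is induced in neurons under stress.

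The study asked whether the promoters of light-induced genes hold a cyclic AMP response element (CRE), the site bound by CREB, that is conserved among mammals, and looked for TATA boxes near it. The members were searched for CRE and TATA box letters, and also for an EGR site and a GC box. The windows are shorter than the study's stretches upstream of the start codon, and conservation was not examined. The study predicted its CREs with a matrix-based program, while only exact letters were matched here. The counts below are therefore not comparable with the study's. RefSeq gave 13 promoter windows for the 9 genes, each from 250 bases before to 50 bases after a start site (build GRCm38.p6), and both strands were read. The full CRE, TGACGTCA, was in 0 of the 13 windows and in 1.79% of all 32851 windows. The TATA box, searched as TATAAA, was also in 0 of the 13, and in 13.6% of all windows. The CRE core TGACG, which the full element contains, was in 2 of the 13, those of Mcl1 and Bcl2, and in 20.8% of all windows. The EGR site GCGGGGGCG, read by the zinc-finger factors of the EGR family, was in 1 of the 13 windows, the upstream one of Bcl2l11, and in 2.91% of all. The GC box GGGCGG, which overlaps that EGR site in Bcl2l11, was in 8 of the 13 windows and in 35.7% of all. These shares were not matched for GC content. The member windows ran from 49.3% to 76% GC, and the median of all windows was 52.7%. The Mcl1 window had 65.7%, a level that 17% of all windows reached. The part of GC content in these counts was not tested. A match of letters is a description and not a site in use. The 3 windows with a CRE core or an EGR site are printed on the strand of the gene, with those letters in capitals, to show where these letters stand in the family.
Mcl1, chr3:95658471-95658770, plus strand: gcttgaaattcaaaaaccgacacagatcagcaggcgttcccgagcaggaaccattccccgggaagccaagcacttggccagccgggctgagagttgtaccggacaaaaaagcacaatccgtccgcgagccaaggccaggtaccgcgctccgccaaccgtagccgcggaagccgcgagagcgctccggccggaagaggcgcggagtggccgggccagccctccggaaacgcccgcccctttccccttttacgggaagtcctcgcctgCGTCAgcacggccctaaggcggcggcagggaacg
Bcl2, chr1:106714241-106714540, minus strand: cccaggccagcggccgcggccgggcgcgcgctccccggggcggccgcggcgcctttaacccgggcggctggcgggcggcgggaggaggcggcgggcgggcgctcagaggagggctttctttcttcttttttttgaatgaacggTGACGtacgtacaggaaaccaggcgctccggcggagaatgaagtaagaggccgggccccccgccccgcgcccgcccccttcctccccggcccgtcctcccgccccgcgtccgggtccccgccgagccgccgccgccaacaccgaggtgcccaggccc
Bcl2l11, chr2:128125788-128126087, plus strand: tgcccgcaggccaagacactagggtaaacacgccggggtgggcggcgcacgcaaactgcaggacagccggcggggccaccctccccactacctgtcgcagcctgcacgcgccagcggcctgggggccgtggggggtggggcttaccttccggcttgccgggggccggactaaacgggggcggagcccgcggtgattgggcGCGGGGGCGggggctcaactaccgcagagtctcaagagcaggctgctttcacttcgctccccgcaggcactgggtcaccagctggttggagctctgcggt
The core in Mcl1 reads on the opposite strand, 16 bases after the start, and the core in Bcl2 lies 107 bases before it. The EGR site of Bcl2l11 begins 50 bases before the start.

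Expression was read as the deposited MAS5 signal, a linear intensity in arbitrary units per probe set, and compared with limma on its log2. Only the 45.7% of probe sets whose third-highest signal over the 6 arrays reached 118.2 were kept and tested. Of the 26 member probe sets 10 were kept, which left 5 genes. Mcl1 kept 5 of 6 probe sets, Bcl2l2 kept 2 of 4, Bcl2l1 kept 1 of 4, and Bad and Bid kept 1 of 2 each. Bcl2, with 1 probe set, Bcl2l11, with 5, and Bak1, with 2, kept none. Signals of different probe sets are not on 1 scale, so levels are compared within a probe set only. In pooled tissue, fewer cells of a type and less RNA per cell cannot be told apart.

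**Figure D1:**
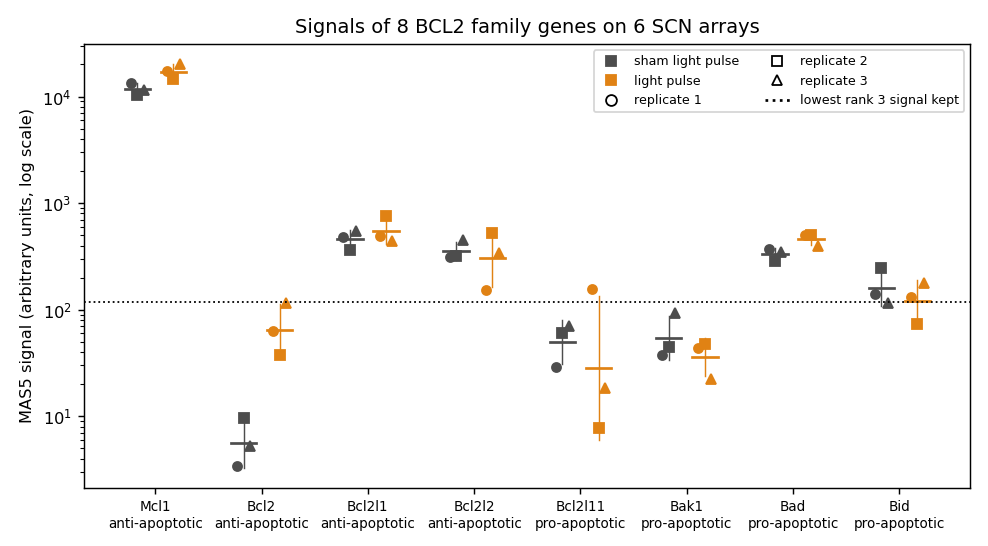
MAS5 signals in arbitrary units (log axis) of the probe set that stands for each of the 8 measured genes, with 1 point per array, 3 sham (grey) and 3 light (orange) arrays. Bars show mean and SD of the log2 values, and a dotted line marks the filter at 118.2; the Mcl1 points of the 2 groups do not overlap, and all points of Bcl2 and Bak1 lie under the line.

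Markers of SCN neurons and of glia were both present in the captured tissue, and 1 array stood apart. All 6 SCN neuron markers (Vip, Avp, Grp, Calb1, Gad1 and Penk) were kept, and their summed signal ran from 58413 to 69034 on the sham arrays and from 69216 to 91755 on the light arrays. These sums add different probe sets and follow the brightest. Vip, which made up most of the neuron sum, read 41694, 41960 and 30271 on the sham arrays and 43194, 46397 and 64589 on the light arrays, and without it the sum was 24133 to 28142 against 26021 to 27242, with overlapping groups. The summed signal of astrocyte markers (4 of 4 kept) was 14846 to 20387 against 15930 to 19954, that of oligodendrocyte markers (2 of 3 kept) 24371 to 43705 against 27384 to 45236, and that of microglia markers (2 of 4 kept) 4575 to 5818 against 4303 to 5347. Endothelial markers (2 of 3 kept) summed to 1120 to 1683 on the sham arrays and to 716.2 to 1176 on the light arrays, with Pecam1 near the floor on every array. Flt1, an endothelial receptor chosen here after its values were seen, was lower on every light array. It read 291.6, 72.6 and 158.9 there, against 505.4, 325.5 and 511.7 on the sham arrays. Its log2 difference was -1.55 (unadjusted p = 0.00503 from limma over all probe sets, without the filter). Cldn5, the other kept endothelial marker, had -0.47, and its groups overlapped. Pecam1, which was not kept, had 0.81. Light pulse replicate 3 had a signal of 110323 for Ttr, a choroid plexus marker, against 63.0 to 295.6 on the other 5 arrays, and its median correlation with the other 5, 0.898, was the lowest of the 6. The part of these marker levels in the results was not tested.

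No BCL2 family gene passed the test. limma called 0 of the 10 kept member probe sets at an adjusted p under 0.05, with adjusted p from 0.960 to 0.970, against 7 (0.0677%) of all kept probe sets. Cyber-T, the method the study used, written anew from its description, also called 0 of the 10, with a lowest adjusted p of 0.811. At an unadjusted p under 0.05 limma gave 4 of the 10 higher after the light pulse, where 2.11% of all kept probe sets were, and 0 lower, where 2.21% were. Cyber-T likewise gave 4 higher and 0 lower, and its shares over all kept probe sets at this level are not given here. The 4 were the same in both tests, 3 of Mcl1 and another of Bcl2l2, and are not independent readings. With limma the 4 became 2 without light replicate 3. The light arrays lay above all sham arrays for 6 of the 10, against 5.62% of all kept probe sets, and below them for 0 of the 10, against 4.46%. These 6 are not independent, because 4 of them read the same gene, Mcl1. One of the others, a Bcl2l2 probe set, passed the filter through its light pulse signals alone and so had to differ. That probe set is also among the 4 above. By exact permutation of 3 arrays against 3 the smallest possible two-sided p is 0.1. Any probe set whose groups do not overlap has this p, so it adds nothing for the 6.

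Mcl1, a survival gene, read higher on every light array than on every sham array at 4 of its 5 kept probe sets, by 1.47 to 1.61 times, without passing the adjusted test. The probe set with the highest signal, 1437527_x_at, read 13380, 10283 and 11586 on the sham arrays and 17269, 14494 and 20029 on the light arrays. The groups did not overlap, and light replicate 3 was the highest. Its mean signal was 11750 ± 1555 (SD, n = 3 arrays) on the sham arrays and 17264 ± 2768 (SD, n = 3) on the light arrays, a ratio of geometric means of 1.47 (95% confidence interval 1.09 to 1.97). On the log2 scale the difference was 0.55 (standard error 0.20, unadjusted p = 0.0157 and adjusted p = 0.960 from limma). The difference was 0.44 without light replicate 3 (unadjusted p = 0.0704 from limma) and 0.46 without sham replicate 2 (unadjusted p = 0.0628 from limma), and the adjusted p ran from 0.889 to 1.000 over all alternative settings.

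The other Mcl1 probe sets show how far the gene's reading depended on the probes. 1456243_x_at had signals of 13225, 9189 and 10312 on the sham arrays and 17494, 15016 and 19952 on the light arrays, 1.61-fold (1.18 to 2.19). 1456381_x_at went from 8135, 6587 and 6565 to 11041, 9435 and 13224, 1.58-fold (1.15 to 2.16). These 2 and 1437527_x_at end in x_at, which marks probes that can match other transcripts too, and between them their log2 signals correlated at 0.984 to 0.990 over the 6 arrays. They are readings of 1 gene and not separate evidence. 1448503_at, which does not carry that mark, read 481.5, 419.3 and 389.5 on the sham arrays and 657.0, 530.3 and 811.7 on the light arrays, 1.53-fold (0.976 to 2.41), again without overlap. 1416880_at read 1171, 1123 and 1540 against 1358, 1301 and 1665, and its groups overlapped, with a ratio of 1.13 (0.756 to 1.69). The interval of 1416880_at holds the ratios of the other 4. The sixth probe set, 1416881_at, ran from 29.1 to 165.5 and was not kept.

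**Figure D2:**
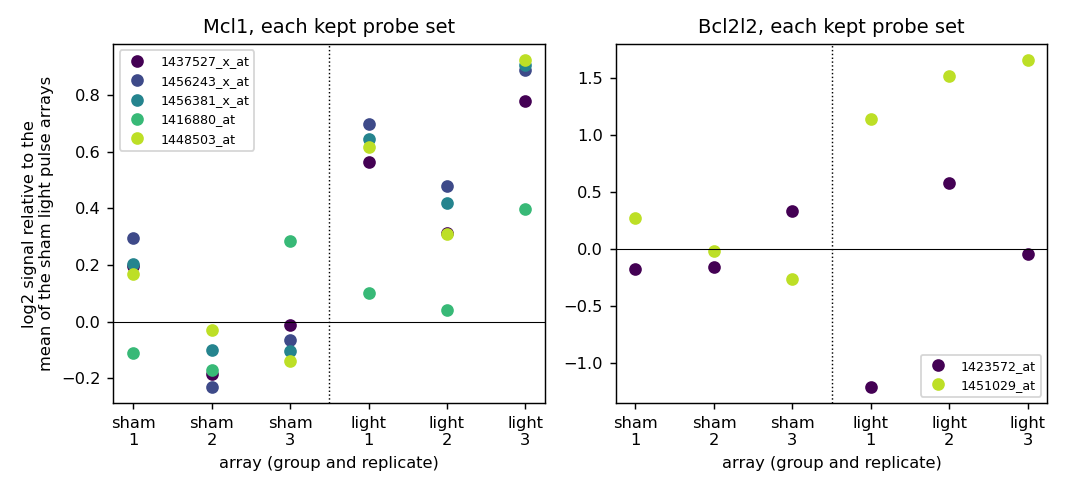
Log2 signal of each kept probe set of Mcl1 (left, 5 probe sets) and Bcl2l2 (right, 2 probe sets) on each of the 6 arrays, relative to its own mean over the 3 sham arrays. For Mcl1 the 3 probe sets ending in x_at and 1448503_at lie together and are higher on all light arrays, with 0.31 to 0.92 there, while 1416880_at overlaps; the 2 Bcl2l2 probe sets part, with 1451029_at from 1.14 to 1.66 on the light arrays and 1423572_at from -1.21 to 0.58.

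The other survival genes did not pass either, and their probe sets differed in direction. Bcl2l1, which encodes BCL-XL, was read by 1420888_at at 477.1, 363.7 and 551.0 on the sham arrays and at 493.5, 760.3 and 445.3 on the light arrays. The groups overlapped, light replicate 2 was the highest, and the log2 difference was 0.27 (standard error 0.33, 95% confidence interval -0.44 to 0.97, adjusted p = 0.961 from limma). With 1 array left out the difference ran from 0.04 without light replicate 2, and 0.10 without sham replicate 2, to 0.42 without light replicate 3. The 3 further Bcl2l1 probe sets, 1426050_at, 1426191_a_at and 1420887_a_at, stayed between 2.9 and 66.6, below the filter on all arrays.

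Bcl2l2, which encodes BCL-W, was read differently by its 2 kept probe sets. 1423572_at, with the higher signal, had 313.7, 317.9 and 447.4 on the sham arrays and 153.5, 529.4 and 343.9 on the light arrays, and light replicate 1 and replicate 2 were its lowest and highest arrays. Its log2 difference was -0.22 (standard error 0.43, 95% confidence interval -1.16 to 0.71), and 0.27 without light replicate 1. At 1451029_at the signals were 95.4, 78.3 and 65.9 on the sham arrays and 174.0, 226.3 and 249.0 on the light arrays. All 3 sham signals were under 118.2, so 1451029_at passed the filter through its light arrays alone and its groups had to differ. The log2 difference was 1.44 (standard error 0.53, unadjusted p = 0.0169 and adjusted p = 0.960 from limma). Because of the filter, the p-values of this probe set are no support for a difference. Its unadjusted p from limma was 0.0552 without light replicate 2 and 0.056 without light replicate 3. Among the 2 probe sets of Bcl2l2 below the filter, 1430454_x_at had 55.6, 44.4 and 33.4 against 89.1, 117.8 and 56.2, and 1430453_a_at had 6.3, 3.9 and 3.1 against 58.9, 61.8 and 6.2.

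Bcl2, the founding survival gene of the family, was near the floor of the arrays. Its only probe set, 1422938_at, had signals of 3.4, 9.7 and 5.3 on the sham arrays and 62.9, 37.6 and 116.1 on the light arrays. The light arrays lay above the sham arrays, but every signal was under 118.2, and no fold change is drawn at this level. Below the filter such a separation was seen in 931 of 12286 probe sets (7.58%), and in 3 of the 16 member probe sets there, 1 each of Bcl2, Bcl2l1 and Bcl2l2.

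Of the 2 death genes with a kept probe set, Bad had groups that did not overlap and Bid had groups that did. Bad encodes a BH3-only protein that survival kinases silence by phosphorylation. 1416582_a_at read 372.0, 283.8 and 347.3 on the sham arrays and 497.2, 502.7 and 399.4 on the light arrays. Its mean signal was 334.4 ± 45.5 (SD, n = 3 arrays) and 466.4 ± 58.1 (SD, n = 3), and the log2 difference of 0.48 did not pass (standard error 0.31, 95% confidence interval -0.19 to 1.15, unadjusted p = 0.145 and adjusted p = 0.960 from limma). The second Bad probe set, 1416583_at, had 214.2, 107.2 and 68.7 against 94.7, 197.4 and 13.1, with overlapping groups and below the filter.

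Bid, which links death receptors to the mitochondrion, had signals of 141.1, 245.3 and 115.4 on the sham arrays and 132.0, 72.7 and 177.5 on the light arrays at 1417045_at. The groups overlapped, and the log2 difference was -0.41 (standard error 0.56, 95% confidence interval -1.62 to 0.80). It was -0.05 without light replicate 2, -0.10 without sham replicate 2, -0.64 without sham replicate 3 and -0.70 without light replicate 3. Its second probe set, 1448560_at, stayed between 6.7 and 22.2.

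Bcl2l11 and Bak1 were not compared, since none of their probe sets was kept. The 5 probe sets of Bcl2l11 ran from 2.6 to 252.7 and scattered within both groups. At 1456005_a_at, which reached the highest of these signals, the sham arrays had 52.7, 3.3 and 252.7 and the light arrays 209.3, 3.9 and 68.5. At 1435448_at, the probe set that stands for the gene, they had 28.8, 60.9 and 70.1 and 157.9, 7.7 and 18.5. The other 3 Bcl2l11 probe sets, 1435449_at, 1426334_a_at and 1456006_at, stayed between 2.6 and 32.4. Bak1, which encodes a pore former, ran from 8.3 to 93.0 over its probe sets 1418991_at and 1425716_s_at, under the filter on all arrays. The groups overlapped at all 5 probe sets of Bcl2l11 and at both of Bak1.

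**Figure D3:**
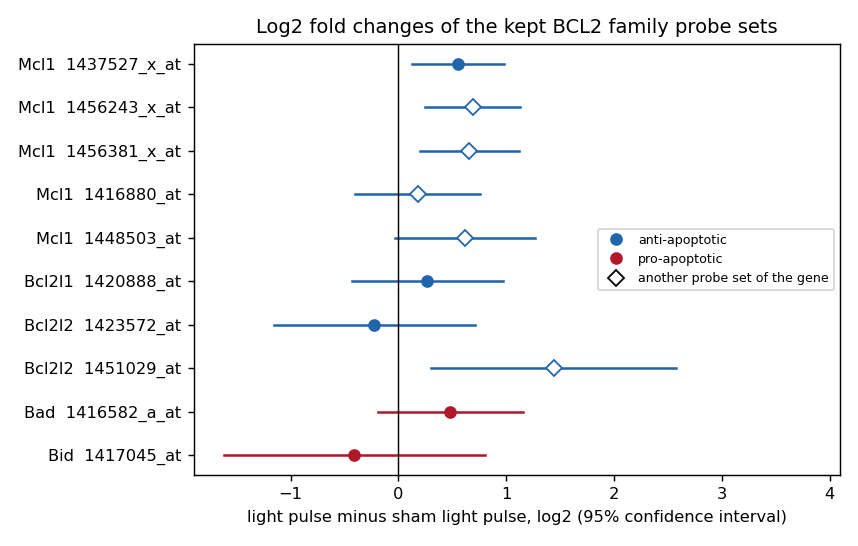
Log2 difference between light and sham arrays with its 95% confidence interval from limma (3 arrays per group) for the 10 kept probe sets, anti-apoptotic in blue and pro-apoptotic in red; filled circles mark the probe set that stands for its gene. The intervals of 3 Mcl1 probe sets and of Bcl2l2 1451029_at lie above 0 before adjustment, and the other 6 include 0. 1451029_at passed the filter through its light arrays alone, so its groups had to differ.

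The difference between survival and death genes was within the spread between arrays. With 1 probe set per gene, the 3 kept survival genes (Mcl1, Bcl2l1 and Bcl2l2) had a mean log2 difference of 0.20 and the 2 kept death genes (Bad and Bid) of 0.04. The gap of 0.16 was smaller than the SD of 0.50 between single arrays of a group in the survival mean minus the death mean. A difference of group means spreads less than single arrays do, and its standard error was not computed. Array by array, the survival mean minus the death mean, each gene centred on its own mean, was -0.05, -0.51 and 0.31 on the sham arrays and -0.42, 0.72 and -0.06 on the light arrays. The groups overlapped, light replicate 2 was the highest and sham replicate 2 the lowest. The gap changed sign to -0.16 without light replicate 2 and to -0.05 without sham replicate 2. Without the filter, with Bcl2, Bcl2l11 and Bak1 added, it was 1.36. That value includes the floor signals of Bcl2 and the probe sets of Bcl2l11 and Bak1 that were not kept.

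No gene of the wider apoptosis machinery passed the test. Of 46 further genes in 4 lists, 38 had a probe set and 22 a kept one, and limma called 0 of their 38 kept probe sets (lowest adjusted p = 0.960), as did Cyber-T. At an unadjusted p under 0.05 limma gave 0 higher and 3 lower of the 38, where 2.11% and 2.21% of all kept probe sets were, and Cyber-T 0 higher and 4 lower. With limma the 3 became 1 without light replicate 2, 1 without light replicate 3, 5 of 74 with no filter and 0 of 27 with a stricter filter of 5000 probe sets. The 2 shares are those of the main limma fit, and those for Cyber-T and for these settings are not given here. The light arrays were all above in 1 and all below in 5 of the 38, against 5.62% and 4.46% of all kept probe sets. Over the 22 genes the median log2 difference was 0.07, against 0.00 over all kept probe sets.

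Other members and relatives of the family had 11 of 16 genes measured and 4 kept, with a median of 0.31. Bnip3 and Bnip2, whose proteins bind BCL2 and related proteins, had the highest signals, with log2 differences of -0.07 (standard error 0.24) and -0.07 (standard error 0.27). The other kept Bnip2 probe sets had 0.28 (standard error 0.95) and 0.47 (standard error 0.80). Bcl2l13, a mitochondrial relative of BCL2 chosen here after its values were seen, was the 1 listed gene with all light arrays above, at 159.1, 106.1 and 191.6 against 316.9, 205.3 and 271.0 (log2 difference 0.82, standard error 0.43, adjusted p = 0.960 from limma).

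Of the caspases and the apoptosome, 6 of 8 genes were measured and 2 kept, with a median of 0.21. Cycs, which encodes cytochrome c, had a log2 difference of 0.24 (standard error 0.18) at its highest probe set and of -0.18 and -0.25 at the other two. Casp2, an initiator caspase, had 0.19 (standard error 0.62). Among the inhibitors of apoptosis and their antagonists, 9 of 10 were measured and 5 kept, with a median of 0.04. Htra2, a mitochondrial protease that antagonizes the inhibitors, had 0.47 (standard error 0.28), and Xiap, which blocks caspases, -0.07 (standard error 0.37). Another kept probe set of each went the other way, with -0.49 for Htra2 (standard error 0.79) and 0.56 for Xiap (standard error 0.45).

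Partners and regulators of the members were the best covered list, with 12 of 12 genes measured, 11 kept and a median of 0.02. The 3 probe sets lower at an unadjusted p under 0.05 belonged to this list. Huwe1 and Fbxw7 encode ubiquitin ligase components that mark MCL1 protein for destruction, and Bclaf1 encodes a BCL2-associated transcription factor. Huwe1 at 1415703_at read 851.0, 615.9 and 689.8 against 548.4, 344.8 and 465.2 (log2 difference -0.68, standard error 0.31). Fbxw7 at 1424986_s_at read 580.4, 329.8 and 319.6 against 269.0, 202.1 and 131.3 (log2 difference -1.03, standard error 0.40). Bclaf1 at 1428845_at read 447.7, 763.4 and 571.2 against 250.1, 177.5 and 428.3 (log2 difference -1.12, standard error 0.38). For each of the 3 genes the light arrays lay below the sham arrays at this probe set, and all had an adjusted p of 0.960 from limma. Each has another kept probe set with a higher signal, and those had log2 differences of -0.04 for Huwe1 (standard error 0.26), 0.02 for Fbxw7 (standard error 0.29) and -0.12 for Bclaf1 (standard error 0.40), with overlapping groups. Vdac2, the channel that holds BAK at the outer membrane and chosen here after its values were seen, read 2079, 2845 and 3279 against 1861, 1809 and 2013, with a log2 difference of -0.51 (standard error 0.26, unadjusted p = 0.0717 from limma and 0.0498 from Cyber-T, each over all kept probe sets).

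**Figure D4:**
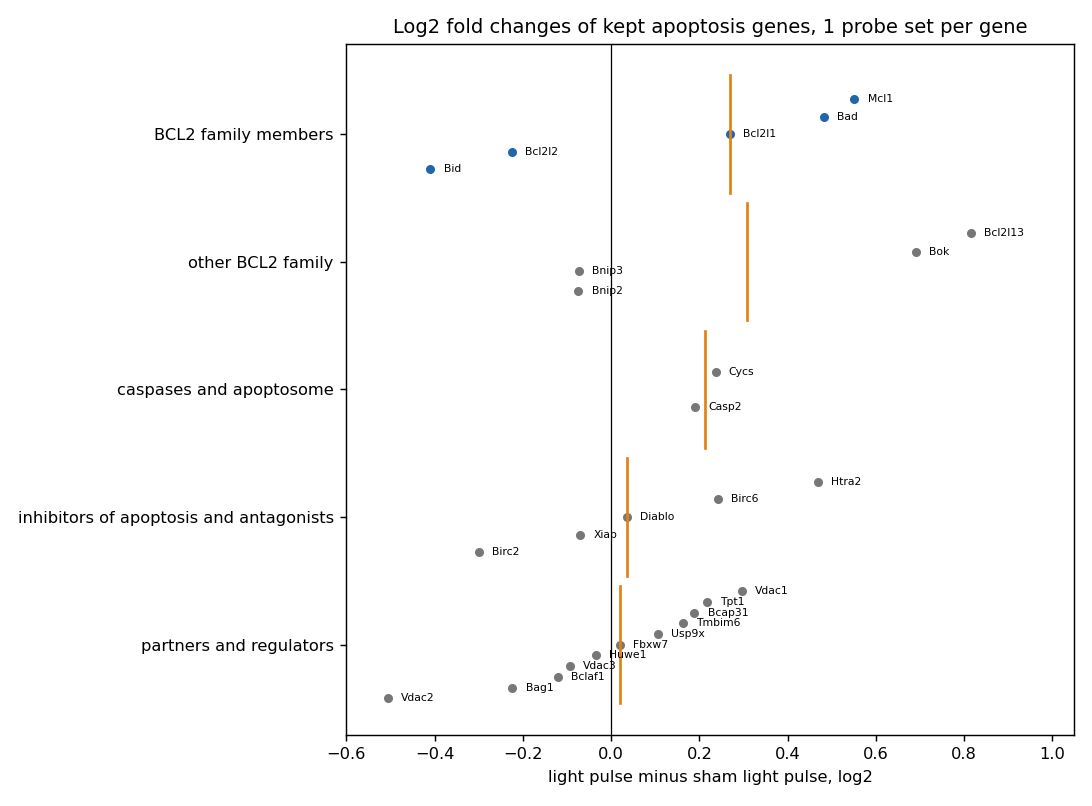
Log2 difference between light and sham arrays for the kept genes, 1 probe set per gene, of the BCL2 family members (blue, 5 genes) and of 4 lists of other apoptosis genes (grey, 22 genes), with list medians as orange lines. Values lie between -0.51 for Vdac2 and 0.82 for Bcl2l13, and none passed limma's adjusted test.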

How the data were processed

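The authors deposited, for each of 6 Affymetrix Mouse 430A 2.0 arrays (3 light pulse, 3 sham light pulse), the signal intensity of 22626 probe sets, computed with Microarray Suite (MAS5), scaled per array and on a linear scale. From each pool of 18 sections of 12 μm, 1 ng of RNA had been amplified in 2 rounds, which can alter relative signals. Present calls were not used here. In their place, as many probe sets as the study kept (45.7%) were taken in the order of their third-highest signal.

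Log2 signals, with no offset, were compared with limma 3.58.1 in R 4.3.3 (lmFit and trended eBayes; p-values two-sided and adjusted over all kept probe sets after Benjamini and Hochberg; threshold 0.05). Probe sets with 1 gene symbol were named (20380; 691 had several and 1555 none); the symbols of all 26 member probe sets matched RefSeq through the Entrez ID. The probe set with the highest mean log2 signal stood for a gene. Every member probe set is named, and of each list the genes at an unadjusted p under 0.05 or else the 2 with the highest signal. The members and lists were chosen with earlier results of these data known. Cyber-T was written from its description (window 101, prior weight 10, 22 degrees of freedom). Both tests were also run on simulated data with added log2 changes larger than most of the member differences. That run does not show how often changes of the members' size would be called. Signals carry no read depth, and the number of arrays, 3 per group, limits the precision.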

Additional observations from a re-analysis of the deposited data

How the results depend on the processing

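The count of called probe sets was 0 for the members and 0 for the other apoptosis lists under every alternative run: quantile normalization, scaling to a common upper quartile, an offset of 50, Cyber-T, eBayes without a trend, the replicate block, either other filter (none, or 5000 probe sets) and each array left out. Member probe sets at an unadjusted p under 0.05 from limma numbered 4 of 10 in the main run. They numbered 6 of 26 with no filter, which adds the probe sets below it, and 3 of 5 with the stricter filter. The count was 3 of 10 without the trend, 3 of 10 without sham replicate 2 and 2 of 10 without light replicate 3. The shares over all probe sets in these settings are not given here. The gap between survival and death genes was 1.36 with no filter and 0.85 with the mean over all probe sets of a gene, which bring in signals near the floor, was 0.04 without probe sets ending in x_at or s_at, and ran from -0.16 to 0.41 with 1 array left out. It could not be computed with the stricter filter, which leaves Mcl1 alone. Of 72 alternative values of the 5 kept genes, 4 changed sign. They were Bcl2l1 (-0.013), Bcl2l2 (1.22) and Bad (-0.21) as means over all their probe sets, and Bcl2l2 without light replicate 1 (0.27, in a range from -0.63 to 0.27 with 1 array left out). Without probe sets ending in x_at or s_at, Mcl1 is read by 1416880_at, at 0.18. The cause of these shifts was not tested. Same-numbered arrays had correlations of deviations of 0.10, -0.19 and -0.13, and differently numbered ones from -0.11 to 0.20. With 3 arrays per group, each centred on its group mean, these values cannot decide whether the numbers pair the arrays. With the replicate block 0 member probe sets and 6 of all probe sets were called. In this balanced design the block leaves every difference as it is and changes its error alone, and the unadjusted p of Mcl1 went from 0.0157 to 0.0288.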
